A study of Homo sapiens with 3 samples.

Results

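This account concerns 10 genes of the circadian clock in HaCaT cells, a spontaneously immortalized human keratinocyte line. They were selected by their names in the array annotation: CLOCK, BMAL1 (listed as ARNTL), PER1, PER2, PER3, CRY1, CRY2, BHLHE40 (listed as BHLHB2, also called DEC1), BHLHE41 (listed as BHLHB3, also called DEC2) and DBP. All 10 were found, among 23595 named genes, and 22 transcripts represented them. The study hybridised 3 Cy3-labelled NimbleGen arrays, with 1 array in each group. The control array held RNA of untreated cells, the ATRA array RNA of cells given 1 µM all-trans retinoic acid, the active form of vitamin A, and the ATRA+NIC array RNA of cells given ATRA with nicotinamide, the amide of vitamin B3. Exposure lasted 36 h, the labels state no nicotinamide dose, and cells with nicotinamide alone were not among the samples. There were no replicates, so differences carry no error from culture to culture and no p-value was computed. Clock transcripts cycle over the day and each condition was read at a single time, so a shift in phase and a change in mean level cannot be told apart.

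The mammalian clock is a transcriptional feedback loop. CLOCK and BMAL1 form a heterodimer that binds E-box motifs and activates the PER, CRY, BHLHE40, BHLHE41, DBP and NR1D1 genes. PER and CRY proteins repress the heterodimer, BHLHE40 and BHLHE41 compete for E-boxes as repressors, and the REV-ERB nuclear receptors close a further loop on BMAL1. DBP activates genes through D-box motifs, which the repressor NFIL3 also binds. Keratinocytes have their own clock, which gates proliferation and differentiation of the epidermis. BHLHE40 is in addition a hypoxia-inducible gene, and one of its older names refers to stimulation by retinoic acid.

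The start regions of 5 of these genes are shown because they carry the motifs through which the loop acts. Windows of 300 bases, 250 before the start of the gene and 50 after it, were taken from RefSeq on build GRCh38.p14. Each is written 5′ to 3′ on the strand of the gene, with matches in capitals. The motifs searched, on both strands, were the E-box CACGTG, its variant CACGTT, the nuclear receptor hexamer AGGTCA, the cyclic AMP response element TGACGTCA and the D-boxes TTATGTAA and TTACGTAA. BHLHE40, BHLHE41 and PER1 are shown for the E-box, PER2 for the E-box variant and a D-box, and BMAL1 for the hexamer, which nuclear receptors including the REV-ERB proteins recognise.
BHLHE40 (chr3:4979187-4979486, plus strand): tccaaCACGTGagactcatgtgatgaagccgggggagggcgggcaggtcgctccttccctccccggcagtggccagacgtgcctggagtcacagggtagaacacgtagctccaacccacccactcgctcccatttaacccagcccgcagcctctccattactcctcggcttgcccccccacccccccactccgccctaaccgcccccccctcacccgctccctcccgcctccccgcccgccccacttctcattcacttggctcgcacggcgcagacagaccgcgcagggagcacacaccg
BHLHE41 (chr12:26124988-26125287, minus strand): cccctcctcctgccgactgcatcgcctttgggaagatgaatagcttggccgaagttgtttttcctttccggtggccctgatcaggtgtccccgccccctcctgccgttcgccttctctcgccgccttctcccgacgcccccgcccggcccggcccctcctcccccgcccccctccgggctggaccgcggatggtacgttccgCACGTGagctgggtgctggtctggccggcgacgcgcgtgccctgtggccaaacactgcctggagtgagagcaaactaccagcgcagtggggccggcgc
PER1 (chr17:8152355-8152654, minus strand): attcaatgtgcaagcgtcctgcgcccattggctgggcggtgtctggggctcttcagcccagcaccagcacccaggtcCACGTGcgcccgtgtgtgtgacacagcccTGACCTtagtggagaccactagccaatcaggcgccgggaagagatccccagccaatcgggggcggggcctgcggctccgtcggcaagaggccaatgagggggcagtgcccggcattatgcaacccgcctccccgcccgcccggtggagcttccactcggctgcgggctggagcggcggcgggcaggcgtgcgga
PER2 (chr2:238288561-238288860, minus strand): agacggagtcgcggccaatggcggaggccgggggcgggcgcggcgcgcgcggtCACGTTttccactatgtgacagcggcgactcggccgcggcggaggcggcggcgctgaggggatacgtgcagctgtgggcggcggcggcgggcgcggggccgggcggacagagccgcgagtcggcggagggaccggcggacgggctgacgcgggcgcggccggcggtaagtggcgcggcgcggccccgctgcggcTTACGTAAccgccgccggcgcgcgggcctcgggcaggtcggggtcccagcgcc
BMAL1 (chr11:13277540-13277839, plus strand): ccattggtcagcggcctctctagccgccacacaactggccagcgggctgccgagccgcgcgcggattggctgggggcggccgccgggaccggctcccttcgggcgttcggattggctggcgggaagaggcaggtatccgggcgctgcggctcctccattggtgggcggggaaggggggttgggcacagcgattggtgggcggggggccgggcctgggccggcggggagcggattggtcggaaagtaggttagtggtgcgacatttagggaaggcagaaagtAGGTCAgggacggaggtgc
The E-box began at base -245 from the start of BHLHE40, at -48 in BHLHE41 and at -173 in PER1. The table held 14 windows for the 10 genes, since some have more than 1 start, and 3 of the 14 had an E-box, against 7.26% of all 35116 windows. The variant CACGTT was found in 4 windows, those of CLOCK, PER2, CRY1 and CRY2, against 5.34% of all. The D-box TTACGTAA lay at -3 in PER2 and is found in 0.125% of all windows, and TTATGTAA lay at -177 in PER3 and is found in 0.886%. The hexamer was present in 4 of the 14 windows, 1 each of BMAL1 and PER1 and both of CRY2, against 13.8% of all. No member window held the cyclic AMP element, which 1.85% of all windows hold. None of the motifs overlapped another, and a match describes letters in these windows and not binding.

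The values below are the deposited intensities, and a gene's level is the mean log2 intensity of its transcripts. A difference is a difference of log2 levels, and it was called when it reached 2-fold, that is 1 on the log2 scale. A gene was counted when its level reached, on at least 1 array, a log2 of 7.95, the median over all genes and arrays. Of the 10 genes 9 were counted and PER3 was too dim. PER1 and PER2 were counted through the ATRA array only, so their counting itself leans towards a high value there. The only scatter available was technical: differences of transcripts of 1 gene had a pooled SD of 0.31 (ATRA against control), 0.30 (ATRA+NIC against ATRA) or 0.24 (ATRA+NIC against control). Transcripts of a gene share sequence and are not replicates. Every transcript of the 10 genes was above 50 on every array, while random probes lay at 18.4 to 19.6. Levels of different genes come from different probes and are not set against each other.

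The clock genes did not all move alike. On the ATRA array 8 of the 9 were above the control array, and BHLHE41 was the only one called, at 2.11-fold. Over all counted genes the median of this difference was -0.04, and 45.7% lay above -0.001. Of the 8, PER1 and PER2 were counted through the ATRA array only. With nicotinamide added, 7 of the 9, PER1 and PER2 among them, were below the ATRA array, where the median difference of all genes was 0.05. BHLHE40 and BMAL1 were the ones called, at 2.78-fold and 2.39-fold below. BHLHE41 in contrast was highest on ATRA+NIC, at 2.94-fold over control. The paired repressor genes BHLHE40 and BHLHE41 thus lay on opposite sides of the control array. CRY2 and CLOCK had the smallest ranges over the arrays.

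**Figure D1:**
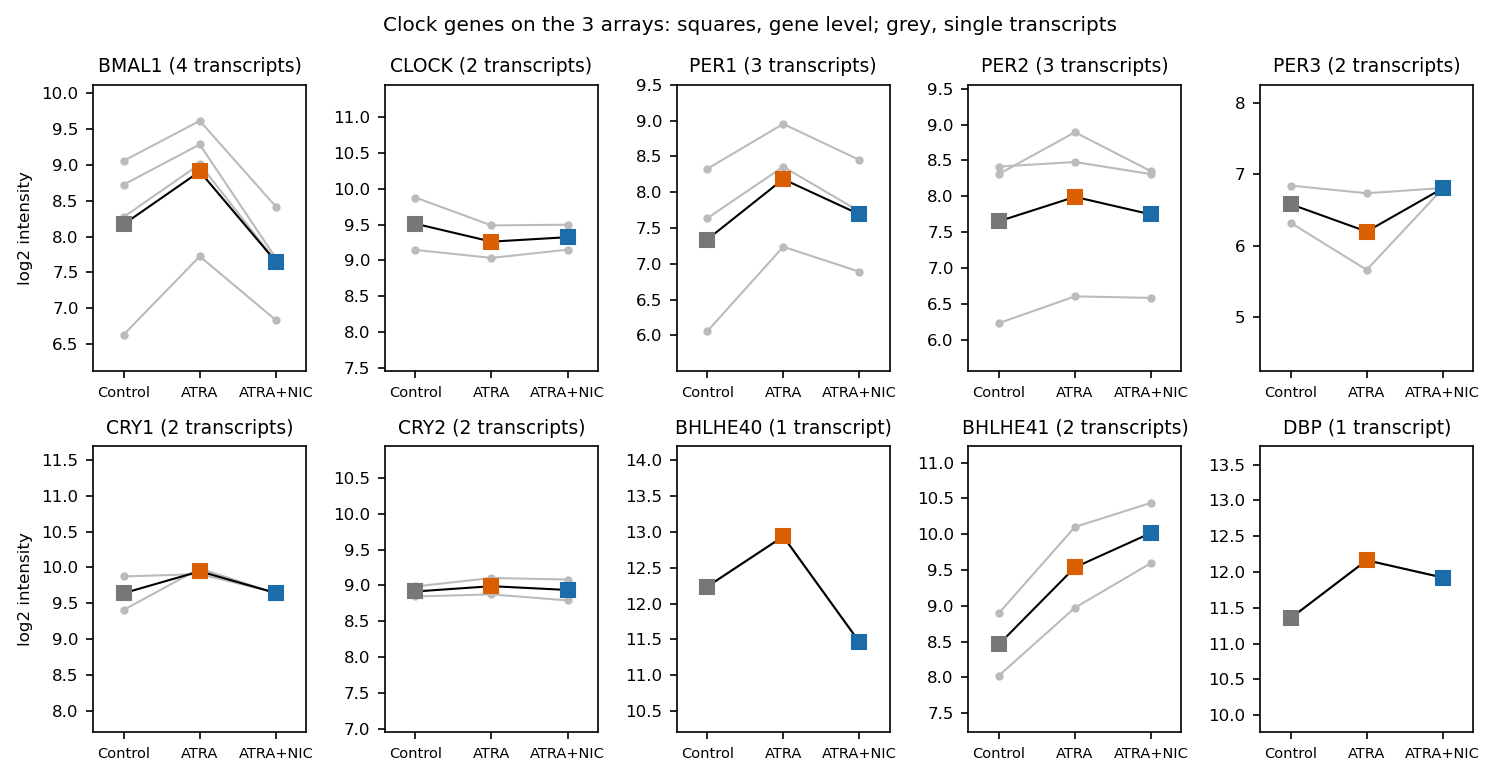
Log2 intensity (y axis) of the 10 clock genes by array (x axis), with coloured squares for the gene level and grey points for single transcripts; every panel spans 4 log2 units. BMAL1 and BHLHE40 peak on the ATRA array and are lowest on ATRA+NIC, BHLHE41 is lowest on Control and highest on ATRA+NIC, and CRY2 is nearly flat.

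BMAL1, a partner of CLOCK in the activating dimer, was read by 4 transcripts on chromosome 11 (13255900 to 13365389 for the longest, build hg18). The brightest had intensities of 533 on the control array, 786 on ATRA and 342 on ATRA+NIC. A second one read 424, 625 and 208, another 309.7, 516 and 202, and the dimmest, which spans only the far end of the locus from 13353801, read 99.2, 212 and 114. All 4 were highest on the ATRA array, and 3 were lowest on ATRA+NIC while the dimmest was lowest on control. The gene level differed by 0.74 for ATRA against control, with transcripts from 0.56 to 1.09. For ATRA+NIC against ATRA it differed by -1.26, with transcripts from -1.59 to -0.89, and 2.44% of all genes had a lower value. With 100 added to each intensity before the logarithm this difference was -0.95, under the threshold. Against control the ATRA+NIC level differed by -0.52, with 3 transcripts lower and the dimmest higher.

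CLOCK, the partner of BMAL1 in the dimer, stayed near its control level on both treated arrays. Its transcripts read 567, 525 and 568, and 941, 718 and 723, on control, ATRA and ATRA+NIC. Both were lowest on ATRA, and the gene differences of -0.25, 0.06 and -0.19 were within the technical SD of each comparison. BMAL1 and CLOCK, whose products act as a dimer, thus had different patterns over the same arrays.

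PER1, which encodes a repressor that is also an immediate-early gene of clock resetting, was 1.79-fold higher on the ATRA array than on control. Its transcripts read 321, 496 and 350.4, then 199, 328 and 213, then 66.5, 151 and 119, in the order control, ATRA and ATRA+NIC. The ATRA array was highest in all 3 and the control array lowest in all 3. The gene was 0.84 above control on ATRA and 0.35 above it on ATRA+NIC, and the treated arrays differed by -0.49. The value of 0.35 rested on the dimmest transcript, which differed by 0.84, while the others differed by 0.10 and 0.13.

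PER2, the second period repressor, had a smaller difference of 0.34 on the ATRA array. Its transcripts read 318, 476 and 326, then 341, 357 and 317, then 74.97, 97.2 and 95.7. All were highest on ATRA, by 0.06 to 0.58 on the log2 scale, and the differences of -0.25 and 0.10 in the other comparisons were within the technical SD. PER3, the period gene least required for rhythm, was dim and went the other way. Its transcripts read 80.0, 50.7 and 111, and 115, 106 and 112, so both were lowest on the ATRA array. The transcripts differed from each other in size, with -0.66 and -0.11 for ATRA against control and 1.14 and 0.07 between the treated arrays, and PER3 entered no count.

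The cryptochromes, potent repressors of the dimer, showed small differences. CRY1 had transcripts of 939, 960.5 and 803, and 679, 1014 and 797. Both were highest on ATRA, but by 0.03 and 0.58, and the gene differences of 0.31, -0.30 and 0.00 were close to the technical SD or under it. CRY2 read 507, 550.1 and 542, and 460.0, 469 and 443, and its differences of 0.07, -0.05 and 0.02 were all under 0.1 on the log2 scale.

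BHLHE40, the more widely expressed of the paired basic helix-loop-helix repressors, was read by 1 transcript on chromosome 3 (4996207 to 5001861, hg18). Its intensity was 4829 on control, 7851 on ATRA and 2828 on ATRA+NIC. The ATRA array was thus 1.63-fold above control, and ATRA+NIC was 1.71-fold below control. The difference for ATRA+NIC against ATRA was -1.47, and 1.76% of all genes had a lower one. It ranged from -1.48 to -1.44 over the alternative treatments of the values. With a single transcript no spread within the gene could be given.

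BHLHE41, its paralog, lies on chromosome 12 (26164225 to 26169113, hg18) and was read by 2 transcripts. They had intensities of 260.3 and 477 on control, 502 and 1098 on ATRA, and 774 and 1386 on ATRA+NIC. Control was lowest and ATRA+NIC highest in both. The gene was 1.08 above control on ATRA and 1.56 above it on ATRA+NIC, and 0.48 higher on ATRA+NIC than on ATRA. Between ATRA+NIC and control the transcripts were at 1.54 and 1.57, and 0.313% of all genes had a higher difference. The call for ATRA against control ended when 100 was added to the intensities, which gave 0.90.

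DBP, the D-box activator whose transcript is a classical direct target of CLOCK and BMAL1, was read by 1 transcript at 2619 on control, 4587 on ATRA and 3879.6 on ATRA+NIC. It was 1.75-fold above control on ATRA and 1.48-fold above it on ATRA+NIC. The difference between the treated arrays, -0.24, was within the technical SD.

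Against control, 1 of 9 clock genes was at least 2-fold higher on the ATRA array, where 3.83% of 12467 genes were, and 0 were lower, where 2.06% were. At 1.5-fold, 5 were higher, namely BHLHE41, PER1, DBP, BMAL1 and BHLHE40, where 9.9% of all genes were, and 0 were lower, where 8.99% were. The median difference of the 9 was 0.70, and that of all genes -0.04. PER1 and PER2 reached the filter only through the ATRA array, so for them a high value there was a condition of being counted. Of the other 7, 1 was at least 2-fold higher on ATRA. With every gene counted only through the ATRA array left out, 350 of 12137 genes were. Over all 10 members, without the filter, the median difference was 0.52, and leaving out the filter raised the median of all genes by 0.017. For ATRA+NIC against ATRA, 2 of 9 were at least 2-fold lower, against 3.74%, and 0 higher, against 1.35%, with medians of -0.25 for the 9 and 0.05 for all. The same 2 genes, BMAL1 and BHLHE40, were lower at 1.5-fold, against 9.47%, and 0 higher, against 7.88%. For ATRA+NIC against control, 1 was at least 2-fold higher, against 1.03%, and 0 lower, against 0.971%, with medians of 0.02 and -0.01. At 1.5-fold, BHLHE41 was the 1 higher gene, against 3.96%, and BHLHE40 the 1 lower gene, against 3.87%. These comparisons share arrays in pairs, so a high value on the ATRA array raises the first and lowers the second.

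**Figure D2:**
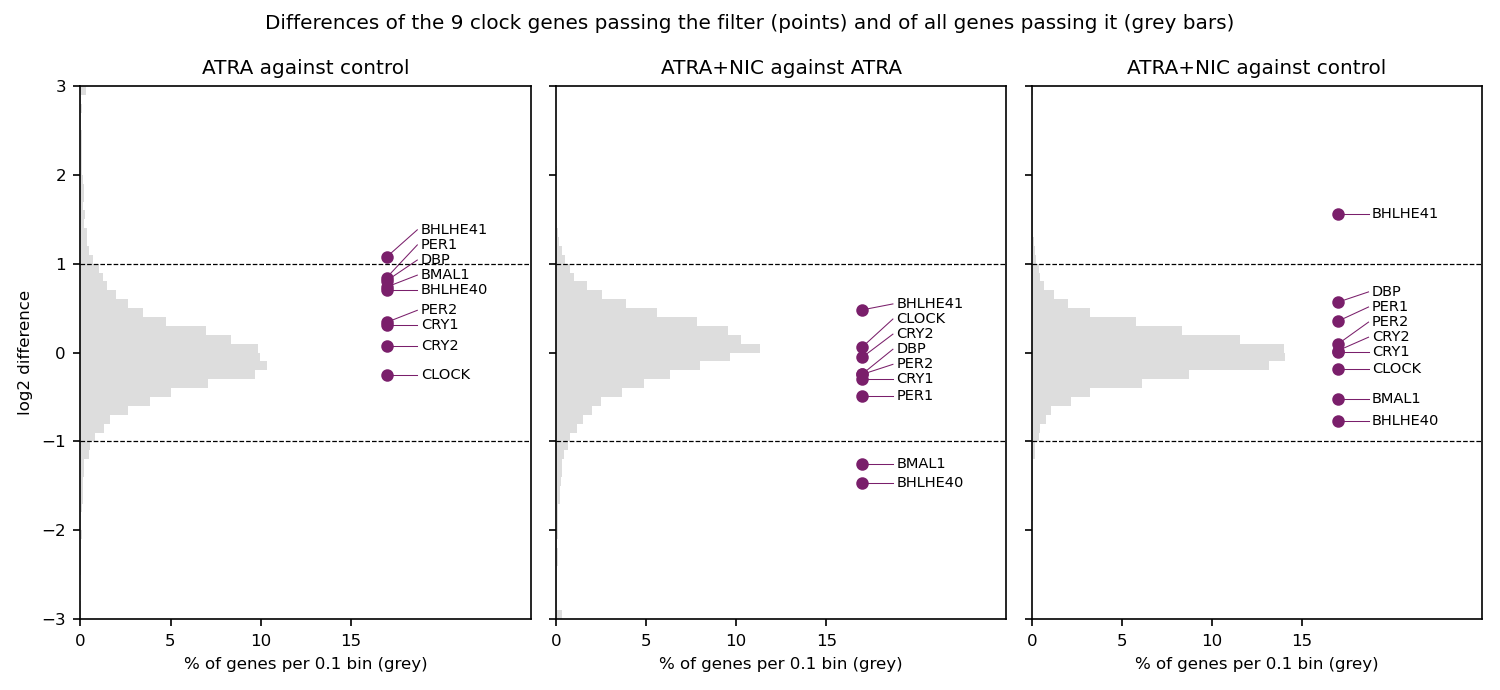
Log2 differences (y axis) of the 9 clock genes that passed the filter (points) in the 3 comparisons, beside the distribution of all 12467 genes (grey bars, percent of genes per bin; values beyond 3 are placed in the end bins); dashed lines mark 2-fold. BHLHE41 is above the upper line in the comparisons with control, and BMAL1 and BHLHE40 are below the lower line for ATRA+NIC against ATRA.

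Other genes of the clock followed the ATRA array in part. Of 32 listed genes 20 passed the filter. On ATRA 13 of these were above control and 7 below it, the lowest at -0.51, where the median of all genes was -0.04. On ATRA, 3 of them exceeded control by 2-fold or more (NR1D1, NFIL3 and KLF10), where 3.83% of all genes did, 0 lay below it by as much, where 2.06% did, and the median difference was 0.23. From ATRA to ATRA+NIC, 3 were lower by that size (NFIL3, NAMPT and KLF10), against 3.74% of all genes, and 0 higher, against 1.35%, and the median was -0.36. For ATRA+NIC against control none was called in either direction, where 1.03% of all genes were higher and 0.971% lower, and the median was -0.16.

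NR1D1, which encodes the REV-ERB alpha repressor of BMAL1, had log2 levels of 10.19 (control), 11.26 (ATRA) and 10.29 (ATRA+NIC). It was thus 2.11-fold above control on ATRA and within 0.11 of control on ATRA+NIC. NR1D2, its paralog, added after values were seen, had levels of 8.13, 8.90 and 8.27. NR1D1, NR1D2 and BMAL1, a repressed target of both, were all highest on the ATRA array. NFIL3, the D-box repressor that opposes DBP, had levels of 10.36, 11.45 and 9.76, a difference of 1.09 on ATRA from control and of -1.69 between the treated arrays. DBP and NFIL3 were both highest on ATRA, but on ATRA+NIC DBP was above control and NFIL3 below it, at -0.60.

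Among transcripts driven by the clock, KLF10, which encodes a Krüppel-like repressor, had levels of 11.95, 13.08 and 11.89, and NAMPT, whose enzyme turns nicotinamide back towards NAD, had 11.63, 12.60 and 11.11. NAMPT was 2.80-fold lower on ATRA+NIC than on ATRA, and KLF10 2.29-fold. The NAD-dependent deacetylase gene SIRT1, which acts on the clock proteins, was at 8.63, 9.44 and 8.48, a difference of -0.96 between the treated arrays. None of 7 kinase and ubiquitin ligase genes that passed was called, and the greatest difference was -0.56, for CSNK1E between the treated arrays. NPAS2, the CLOCK paralog, was at 7.97, 8.16 and 8.34 and was not called.

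**Figure D3:**
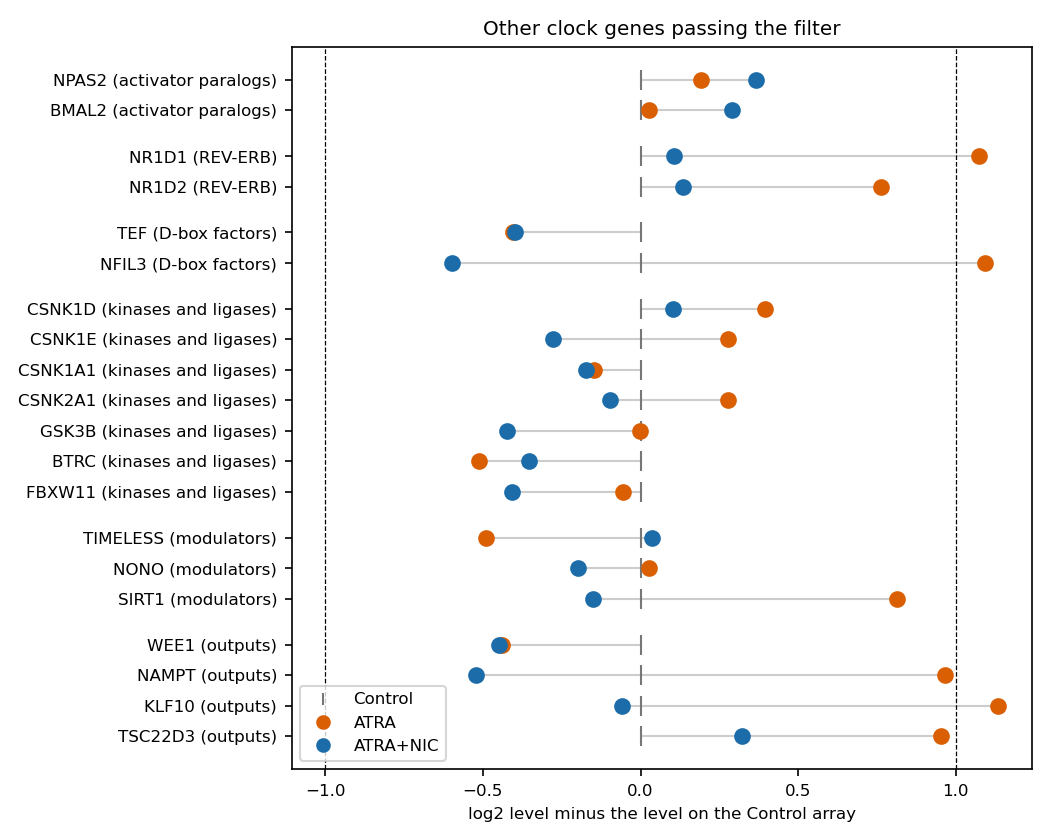
Log2 level minus the level on the Control array (x axis) for the 20 other clock genes that passed the filter (rows), with orange points for ATRA, blue for ATRA+NIC and a grey tick for Control; dashed lines mark 2-fold. NR1D1, NFIL3 and KLF10 pass the upper line on ATRA, and no gene passes either line on ATRA+NIC.

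BHLHE40 and BHLHE41 were set beside hypoxia-response genes and beside a retinoid target. Of 8 hypoxia-response genes all were higher on ATRA than on control, 5 of them at least 2-fold (CA9, VEGFA, ADM, NDRG1 and EGLN3), where 3.83% of all genes were, with a median of 1.17. All 8 were lower on ATRA+NIC than on ATRA, and 7, all but SLC2A1, were at least 2-fold lower, where 3.74% of all genes were, with a median of -1.96. All were also lower than control, 4 at least 2-fold (PDK1, NDRG1, EGLN3 and BNIP3), against 0.971% of all genes. BHLHE40 had the same order of arrays, ATRA above control above ATRA+NIC, as had BMAL1. BHLHE41 did not, since it was highest on ATRA+NIC, where all 8 hypoxia-response genes were lowest. The order of BHLHE40 was also found in 17.4% of all 12467 genes, in 8 of 10 early-response genes and in 7 of the 20 other clock genes, NFIL3 and NAMPT among them. Of these early-response genes FOS, EGR2 and EGR3 reached the filter only through the ATRA array, so the filter itself set that array highest for them. EGR2 and EGR3 were under an intensity of 50 on the control and ATRA+NIC arrays, so the rest of their order lies in dim signal.

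The retinoic acid hydroxylase gene CYP26A1, a direct retinoid target, had levels of 6.27, 8.42 and 9.22, so it reached the filter through the treated arrays. BHLHE41 had its order, control below ATRA below ATRA+NIC, which 12.2% of all genes had. BHLHE40 did not follow CYP26A1, since on ATRA+NIC it was below control and CYP26A1 at its highest. Whether either clock gene shares its regulation with these was not tested.

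Early-response genes, which cells induce within minutes to hours of many stimuli, had a larger swing. Of the 10, all but IER3 were at least 2-fold higher on ATRA than on control (9 of 10, against 3.83% of all genes), and all but JUNB were at least 2-fold lower on ATRA+NIC than on ATRA (9 of 10, against 3.74%). FOS, EGR2 and EGR3 reached the filter only through the ATRA array, so for these 3 a high value there was a condition of being counted. Of the other 7, 6 were at least 2-fold higher on ATRA (FOSB, JUN, JUNB, EGR1, ATF3 and IER2) and 6 at least 2-fold lower on ATRA+NIC than on ATRA. With every gene counted only through the ATRA array left out, 350 and 334 of 12137 genes were called in these directions. FOSB, which encodes a partner of JUN in the AP-1 factor, had levels of 9.97, 13.36 and 8.90 on control, ATRA and ATRA+NIC. Between ATRA+NIC and control 3 were at least 2-fold lower (FOSB, JUN and EGR3), against 0.971% of all genes, and 0 were higher, against 1.03%. The call of EGR3 lay in dim signal, at intensities of 37.3 on control and 16.3 on ATRA+NIC, the second below the random probes. With transcript values under 50 set to 50, its fold was 1.06.

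**Figure D4:**
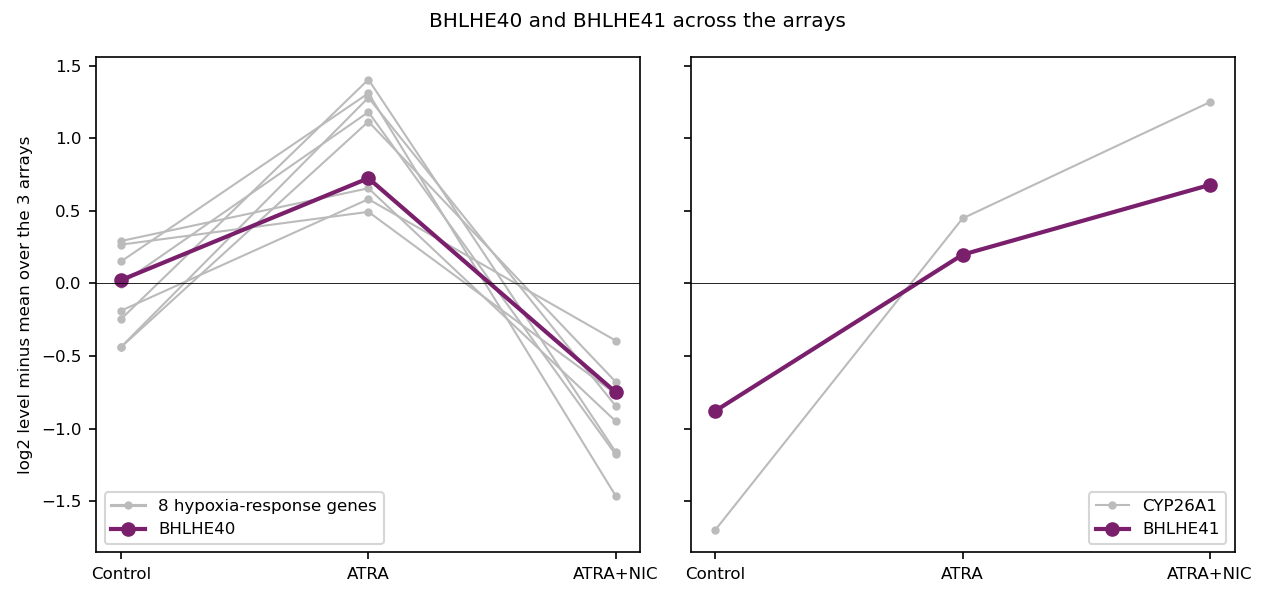
Log2 level minus the gene's own mean over the 3 arrays (y axis) for BHLHE40 with 8 hypoxia-response genes (left, grey) and for BHLHE41 with CYP26A1 (right, grey), by array (x axis). BHLHE40 is lowest on ATRA+NIC as are the 8 genes, and BHLHE41 is lowest on Control and highest on ATRA+NIC as is CYP26A1. Each clock gene is drawn only with genes that had its order of arrays.

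Of the 9 relatives of the BHLHE40 and BHLHE41 family, the HES and HEY repressors, 7 passed the filter. HES2 was 2.28-fold lower on ATRA than on control (9.43, 8.24 and 8.54), and HEY1, a Notch target, was 2.91-fold lower on ATRA+NIC than on ATRA (9.61, 10.42 and 8.88). These were the only calls, 1 of 7 in each of those comparisons, where 2.06% and 3.74% of all genes were lower by as much. No relative that passed was at least 2-fold higher in any comparison, and the median difference was 0.32 for ATRA against control and -0.07 in each of the others. Among the 7, 1 reached the filter only through the ATRA array, so a high value there was a condition of its being counted. Over all 9 relatives, without the filter, the medians were 0.32, -0.07 and -0.04.

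The genes most like a clock gene were those with the smallest distance between the 3 log2 levels, each taken minus the gene's own mean. Over these 3 arrays the nearest to BHLHE40 were KLHL28 (distance 0.04), CD4, WDR47, DUSP16 and HEY1 (0.08), and 27 genes lay within 0.2. The nearest to BHLHE41 were RNPEPL1 (0.09), ZMYND15, TNFSF10, TNFRSF14 and BSPRY (0.23), with 3 genes within 0.2. For PER1 they were SLFN11 (0.02), ABHD3, TMEM156, ARRDC2 and RNF39, with 269 genes within 0.2, and for DBP NRIP1 (0.01), CRB3, CLMN, LARP1BP3 and DEFB103B, with 175. The distance was not scaled for the size of the differences, so genes with larger differences tend to have fewer neighbours. These counts thus do not rank how common a pattern was, and 12.2% of all genes had the array order of BHLHE41.

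The arrays had median transcript intensities of 297.9 to 302.3. Of 10 keratinocyte markers 9 or 10 reached the level of the filter on each array. The list did not move one way: 4 were higher and 6 lower on ATRA than on control, with a median difference of -0.17, and 3 were higher and 7 lower on ATRA+NIC than on control. The basal keratin gene KRT5 differed by -1.57 on both treated arrays against control, and KRT17, a keratin of activated keratinocytes, by 1.01 on ATRA. TP63, which encodes the p63 regulator of the epidermal lineage, had levels of 12.04, 12.53 and 11.10 and was 2.70-fold lower on ATRA+NIC than on ATRA, in the array order of BHLHE40 and BMAL1. Of 6 fibroblast markers 1 reached the level on each array (COL1A1), and of 5 melanocyte markers none did.

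Of 5 leukocyte markers 1, 3 and 1 reached the filter level on control, ATRA and ATRA+NIC, with summed intensities of 709.6, 1378 and 619. The ATRA array stood highest in this sum, as it did for every counted clock gene but CLOCK and BHLHE41. CD3E, of the T cell receptor complex, had levels of 7.97, 8.97 and 6.14, and CD79A, of the B cell receptor, had 6.90, 8.25 and 6.79 and was counted through the ATRA array only. CD14, a monocyte marker, was at 7.57, 8.44 and 8.38, so it was not lower on ATRA+NIC than on control. PTPRC, the pan-leukocyte marker, and LYZ, the lysozyme gene of myeloid cells, did not pass the filter. PTPRC had levels of 5.07, 7.24 and 4.21, that is intensities of 33.7, 151 and 18.5, of which the last was at the level of random probes, and LYZ was lower on ATRA than on control, at -0.63. The part of such signal in the clock results was not tested. Of 5 endothelial markers only CDH5 reached the filter level, on the treated arrays, with levels of 7.70, 11.31 and 11.67. In such bulk RNA, fewer cells of a type and less RNA per cell cannot be told apart.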

How the data were processed

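RNA of HaCaT cells was read on 3 single-colour arrays, control, ATRA and ATRA+NIC, 1 per group. The authors deposited intensities on a linear scale; per the file headers these are RMA gene calls over 3 probes per transcript, with coordinates on hg18, and no source used here names the software. RMA equalises the distributions of arrays, so a shift of most genes would be removed. A deposited column headed as a standard error was not used, its unit being undefined. The deposited value table of the series held the same intensities (largest gap 0.032) for the 31275 transcripts at 50 or above on all arrays.

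Of 45033 transcripts, 42947 carried a gene name. Symbols were updated by Entrez number through RefSeq (GRCh38.p14), used for names and promoter windows only. Gene levels are means of log2 intensities, and 12467 of 23595 genes reached a log2 level of 7.95 (intensity 246.5) on at least 1 array. A difference was called at 2-fold. Named genes are all 10 members, the called genes of each other list or, with none called, the counted gene of greatest difference, CYP26A1, and the 5 nearest genes of BHLHE40, BHLHE41, PER1 and DBP, without locus, clone and reading-frame names. Of the called early-response and hypoxia genes only some are given with values, and NR1D2, PTPRC, LYZ and CD14 were named after their values were seen. The members and lists were chosen with earlier results of these data known. Python 3.11.15, numpy 2.4.6, pandas 2.3.3 and matplotlib 3.10.9 were used.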

Additional observations from a re-analysis of the deposited data

How the results depend on the processing

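The number of arrays, 1 per group, limits every value, and low signal limits those of the dimmer genes, although all transcripts of the 10 clock genes stood above random probes. No paired analysis was possible because each group holds 1 array. Adding 100 to the intensities left 0 of 9 clock genes called on ATRA against control and 1, BHLHE40, between the treated arrays, with BHLHE41 at 0.90 and BMAL1 at -0.95. A filter at the 75th percentile left 2 clock genes to count, BHLHE40 and DBP, and gave 0 calls on ATRA and 0 on ATRA+NIC, each against control, and 1 between the treated arrays. The value table lacks dim transcripts, so the median that sets the filter rose to a log2 of 9.50 and left 5 clock genes to count and 1 call, BHLHE40, for ATRA+NIC against ATRA; BMAL1 was not counted there, and its difference was unchanged at -1.26. A threshold of 1.5-fold gave 5 clock genes on ATRA and 2 on ATRA+NIC, each against control. Of the 20 other clock genes, 7 were then called on ATRA against control, all higher, where 9.9% of all genes were. Between the treated arrays 7 were called, all lower on ATRA+NIC, against 9.47%. For ATRA+NIC against control 1 was called, as lower, against 3.87%. Without the filter 5 of 32 other clock genes were called for ATRA+NIC against ATRA, all lower, where 973 of 23595 genes were. For ATRA+NIC against control 1 of the 32 was called, as lower, where 491 of 23595 genes were. An offset of 16, centring on the median or the 75th percentile, and the brightest or the median transcript changed no count by over 1.5 times. Of 210 member differences recomputed, 203 moved by less than the technical SD, and 7 by more, in BMAL1, PER1, PER2 and PER3. Many of the 203 could hardly move. The value table held all member transcripts with the same intensities, and centring shifts all genes alike. For genes with 1 or 2 transcripts the mean and the median are the same. The tally is thus no measure of robustness. No called difference changed sign, and the 4 sign changes were in differences under 0.4.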
